A study of Mus musculus with 6 samples.

Results

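The transcripts described here are 10 genes of the acute inflammatory response, out of 55487 genes counted in cultured mouse microglia. They were chosen by name, as cytokine and inflammasome genes reported elsewhere as REV-ERB targets. The choice was made with earlier results of these data known. The group holds the interleukin-1 agonists Il1a and Il1b with their antagonist Il1rn, the cytokines Il6, Il10, Il18 and Tnf, the inflammasome sensor Nlrp3 with its protease Casp1, and Nos2, the inducible nitric oxide synthase. Primary microglia were grown from cortical mixed glia of pups at postnatal days 1 to 3 that carried Nr1d1 fl/fl, with or without CAG::CreERT2. The 3 control cultures (Cre-) and the 3 REV-ERBα KO cultures (Cre+) both received 1.5 µM 4-hydroxytamoxifen (4-OHT) for 2 days per the labels, so the controls share the drug and the floxed alleles. The labels name no inflammatory stimulus and no sex for these samples, and per the methods the mixed glia were kept in medium with GM-CSF, a growth factor that acts on myeloid cells. The CAG promoter is active in most cell types, so the Cre line itself does not restrict recombination to microglia. Recombination by cell type was not measured, and Cre- cultures lack the recombinase altogether. Each culture gave 1 bulk RNA-seq library.

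Microglia are the resident macrophages of the brain and a main source of these cytokines there. Interleukin-1α and interleukin-1β signal through a shared receptor, which the Il1rn product occupies without signalling. Interleukin-1β and interleukin-18 are made as inactive precursors that caspase-1 cleaves once an inflammasome such as that of NLRP3 has assembled, and transcript levels do not report on this cleavage. Transcription of most of these genes is induced through NF-κB, and REV-ERBα, the product of Nr1d1, is a nuclear receptor that represses transcription from DNA sites built around the letters AGGTCA.

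Of the 10 genes, Il1rn was the single transcript that passed the test between the groups. Its RefSeq start sites are shown because the hexamer AGGTCA was found at 1 of them and in no other window of the group. Windows of the 250 bases before each start (RefSeq, GRCm38.p6) were at hand for 8 of the 10 genes, 11 windows in all. AGGTCA was searched on both strands, where it reads TGACCT on the opposite strand. It was present in 1 of the 11 windows, that of the upstream Il1rn start, with its first letter 189 bases before the start, and in 4607 of 32851 windows of all genes (14%). The match is a description of these letters alone. The bases that flank them in a REV-ERBα site were not searched, and binding was not measured. The upstream window and that of the next start are printed 5′ to 3′ on the plus strand, with the hexamer in capitals.
Il1rn, first start, chr2:24336610-24336859: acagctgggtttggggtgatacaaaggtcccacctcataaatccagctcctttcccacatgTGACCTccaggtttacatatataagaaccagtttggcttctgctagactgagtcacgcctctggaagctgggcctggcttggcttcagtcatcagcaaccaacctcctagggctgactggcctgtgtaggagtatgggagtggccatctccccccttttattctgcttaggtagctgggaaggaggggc
Il1rn, second start, chr2:24345041-24345290: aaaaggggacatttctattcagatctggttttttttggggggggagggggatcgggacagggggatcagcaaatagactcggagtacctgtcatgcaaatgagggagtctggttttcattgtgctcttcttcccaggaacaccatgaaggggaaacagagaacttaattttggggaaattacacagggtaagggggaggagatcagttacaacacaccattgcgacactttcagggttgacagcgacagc
Reads were counted per gene, so these start sites cannot be told apart in the values that follow.

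Counts on genes ran from 87545868 to 93942161 per Cre- library and from 93701215 to 110909129 per Cre+ library. Nr1d1 itself was at 2.35, 1.20 and 1.64 CPM in Cre- libraries, where CPM is the count per 1000000 TMM-normalised counts. In Cre+ libraries it was at 1.00, 0.945 and 1.08 CPM. The groups did not overlap, but its log2 fold change of -0.77 (SE 0.25) had an adjusted p of 0.094 in edgeR's quasi-likelihood test, and these counts include exons outside the deleted part. When 1 library was left out, the log2 fold change ran from -0.50 (adjusted p = 0.31, without Cre- replicate 1) to -0.98 (adjusted p = 0.041, without Cre- replicate 2), and it passed the test in 1 of these 6 fits. Of 10 microglial markers, 9 were above 1 CPM in every library, while P2ry12 measured 0.401 to 1.03 CPM. Summed microglial markers ran from 1983 to 2099 CPM in Cre- and from 2061 to 2151 CPM in Cre+ libraries, and overlapped. Across all genes, 579 of 11429 tested genes (5.07%) passed an adjusted p of 0.05, 286 higher (2.50%) and 293 lower (2.56%) in Cre+. With scaling factors taken over all genes with a count, a choice made after seeing the data, 829 of 1012 calls were higher.

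Per unit of gene length, the 10 genes spanned from abundant to barely detected. This length counts all annotated exon bases of a gene, 5535 for Il1rn and 1907 for Il1b. The transcripts made in these cultures can be shorter, so the order of genes close in level is uncertain. Il1rn stood first, at a mean of 37.6 ± 7.70 CPM per kb (SD, n = 6 libraries), above 90.3% of the tested genes and 3.55-fold above the next gene. Il1a (10.6 ± 2.43) and Casp1 (10.4 ± 0.781 CPM per kb) followed, and their ranges overlapped in both groups. Il18 averaged 4.89 ± 0.719 and Tnf 3.78 ± 0.671 CPM per kb, with Il18 above Tnf in every Cre- library but not in every Cre+ library. Il1b averaged 1.51 ± 0.384 and Nlrp3 0.982 ± 0.143 CPM per kb, and again the pair was separate in Cre- but overlapped in Cre+. At the other end lay Il6 (0.0692), Nos2 (0.0116) and Il10 (0.0116 CPM per kb). These last genes did not reach 1 CPM in 4 libraries and were not tested in the main fit, so 7 of the 10 genes were. The antagonist transcript was therefore the most abundant of the group in both genotypes, and the agonist Il1b lay below Il1a, Casp1, Il18 and Tnf in the mean.

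**Figure D1:**
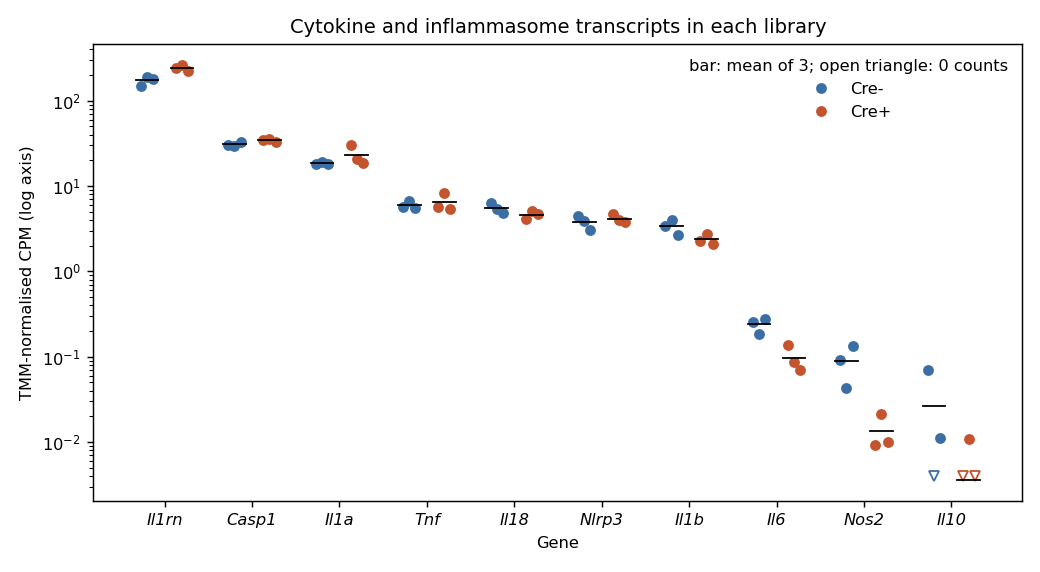
TMM-normalised CPM on a log axis for the 10 genes, with 1 point per library (blue Cre-, orange Cre+, 3 each), a bar at each group's mean and open triangles for libraries with 0 counts. The Il1rn points of Cre+ (224 to 264 CPM) all lie above those of Cre- (149 to 190 CPM), whereas the Il6 and Nos2 points of Cre+ lie below those of Cre- at levels under 0.3 CPM.

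The first comparison asked whether the balance of interleukin-1 transcripts differed between Cre+ and Cre- cultures. Il1rn (ENSMUSG00000026981, chr2:24336853-24351494, plus strand) measured 149, 190 and 180 CPM in Cre- and 241, 264 and 224 CPM in Cre+ libraries. Every Cre+ library was above every Cre- library, and no other gene shares its exons. Il1rn rose from 173 ± 21.2 to 243 ± 20.2 CPM (SD, n = 3 each), a log2 fold change of 0.49 (SE 0.08, 95% interval 0.33 to 0.65, adjusted p = 0.0013). The call was made under all 13 other settings or subsets of libraries tried, in which the log2 fold change ran from 0.39 to 0.57. Among the 286 genes called higher, whose median log2 fold change was 0.31, 56 had a larger one than Il1rn. In bulk RNA, a change in the number of cells that make a transcript and a change in transcript per cell cannot be told apart. The summed level of 4 border macrophage markers also lay higher in Cre+ (73.9 to 90.5 CPM) than in Cre- libraries (61.0 to 63.2 CPM). This was Mrc1 alone (55.1 to 57.6 against 70.8 to 86.6 CPM), since Pf4 lay lower in Cre+ without overlap (4.91 to 5.66 against 2.66 to 3.72 CPM) and Lyve1 and Cd163 stayed under 0.3 CPM. The part of these in the Il1rn result was not tested.

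Il1a (ENSMUSG00000027399, chr2:129299610-129309972, minus strand), the agonist that is active without caspase-1, measured 18.3, 19.2 and 18.0 CPM in Cre- libraries. In the Cre+ libraries it measured 30.4, 21.0 and 18.6 CPM. The Cre- libraries lay close together, Cre+ replicate 1 stood well above all others, and Cre+ replicate 3 fell within the Cre- range. The log2 fold change of 0.34 (SE 0.14, 95% interval 0.05 to 0.63) did not pass the test, with an adjusted p of 0.18, and without Cre+ replicate 1 it was 0.10. Without a filter on low counts it did pass, at 0.41 with an adjusted p of 6.8e-04. Of the 1974 exon bases of Il1a, 222 are shared with Gm14023 on the other strand, a gene with 450 counts over all libraries against 12131 for Il1a.

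Il1b (ENSMUSG00000027398, chr2:129364570-129371139, minus strand), the agonist most often used as a readout of inflammatory activation, measured 3.39, 4.05 and 2.71 CPM in Cre- libraries. The Cre+ libraries measured 2.27, 2.75 and 2.08 CPM. The groups touched, since Cre+ replicate 2 lay just above Cre- replicate 3. Il1b averaged 3.38 ± 0.672 CPM in Cre- and 2.37 ± 0.344 CPM in Cre+ (SD, n = 3 each). The log2 fold change was -0.52 (SE 0.20, 95% interval -0.93 to -0.10) with an adjusted p of 0.16, and it passed the test under none of the 13 other settings, where it ran from -0.66 to -0.36. The interval, which is not adjusted for the number of genes, did not reach 0.

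Within a library, ratios of these transcripts do not depend on how libraries are scaled. Per kb, Il1rn exceeded Il1b by 15.2, 16.2 and 22.9-fold in Cre- and by 36.6, 33.1 and 37.1-fold in Cre+ libraries. The groups did not overlap, and the log2 ratio of Il1b over Il1rn was lower in Cre+ by a difference of -0.999 (SE 0.19). Il1a exceeded Il1b by 5.20, 4.58 and 6.42-fold in Cre- and by 12.9, 7.38 and 8.61-fold in Cre+ libraries, a log2 difference of 0.81 (SE 0.28). Tnf exceeded Il1b by 1.93, 1.91 and 2.38-fold in Cre- and by 2.95, 3.49 and 2.99-fold in Cre+ libraries, a log2 difference of 0.60 (SE 0.13). Each of the 3 ratios separated the groups, with a two-sided exact permutation p of 0.1, the smallest that 3 against 3 libraries allow, so none could pass 0.05. All 3 ratios contain Il1b and are therefore not independent of each other. Among single tested genes, 24.0% did not overlap between the groups, and Il1rn was one such gene. How often ratios of other genes separate the groups was not measured, so the 3 separations have no background share beside them. Relative to Il1b, Il1rn, Il1a and Tnf were thus each higher in every Cre+ library than in any Cre- library.

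**Figure D2:**
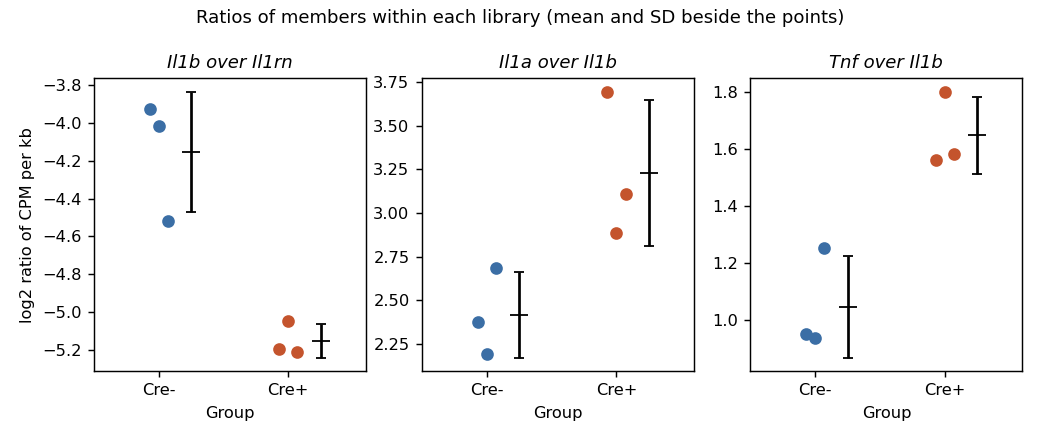
Log2 ratios of CPM per kb within each library (points; blue Cre-, orange Cre+, 3 each) with the mean and SD of each group beside them, on a separate vertical scale for each ratio. The difference of Cre+ from Cre- is -0.999 for Il1b over Il1rn, 0.81 for Il1a over Il1b and 0.60 for Tnf over Il1b, with no overlap between groups in any panel.

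The second comparison concerned the inflammasome and the cytokine it matures. Nlrp3 (ENSMUSG00000032691, chr11:59541568-59566956, plus strand), the sensor, measured 4.50, 3.89 and 3.04 CPM in Cre- and 4.66, 4.05 and 3.77 CPM in Cre+ libraries. The groups overlapped over most of their range. The log2 fold change was 0.13 (SE 0.17, 95% interval -0.24 to 0.49, adjusted p = 0.76), and without Cre- replicate 3 it was -0.01. At this spread, changes of Nlrp3 between 0.849-fold and 1.41-fold remained possible.

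Casp1 (ENSMUSG00000025888, chr9:5298508-5307290, plus strand), the protease, measured 29.9, 29.8 and 32.7 CPM in Cre- and 34.7, 35.8 and 33.3 CPM in Cre+ libraries. Every Cre+ library lay above every Cre- library, by a narrow margin between Cre+ replicate 3 and Cre- replicate 3. The log2 fold change was 0.17 (SE 0.07, 95% interval 0.02 to 0.31), and it did not pass the test (adjusted p = 0.19). With scaling factors over all genes with a count it did, at 0.25 and an adjusted p of 0.045. Separation of the groups is common in these data, since 24.0% of all tested genes did not overlap between the groups, and Il1rn and Casp1 were 2 such genes of the 7 tested here.

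Il18 (ENSMUSG00000039217, chr9:50554827-50581840, plus strand), the other caspase-1 substrate, measured 6.26, 5.43 and 4.80 CPM in Cre- and 4.08, 5.04 and 4.67 CPM in Cre+ libraries. The lowest library was Cre+ replicate 1 and the highest Cre- replicate 1, and the remaining 4 were interleaved. The log2 fold change was -0.26 (SE 0.15, 95% interval -0.57 to 0.06, adjusted p = 0.37), and -0.16 without Cre- replicate 1. Il18 and Il1b thus had negative estimates, and Nlrp3 and Casp1 positive ones, none of them past the test.

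Tnf (ENSMUSG00000024401, chr17:35199381-35202007, minus strand), an early cytokine of macrophage activation, measured 5.62, 6.66 and 5.53 CPM in Cre- and 5.76, 8.24 and 5.36 CPM in Cre+ libraries. Cre+ replicate 2 was the highest library and Cre+ replicate 3 the lowest, so the Cre+ libraries enclosed the Cre- range. The log2 fold change was 0.12 (SE 0.16, 95% interval -0.23 to 0.46, adjusted p = 0.76), and -0.10 without Cre+ replicate 2. Of the 7 tested genes, 1 was called (14.3%, against 5.07% of all tested genes), and it was higher in Cre+. None was called lower (background 2.56%), by edgeR, DESeq2 or limma, and 4 of the 7 (57.1%) had an unadjusted p under 0.05 in edgeR, against 2188 of all 11429 tested genes (19.1%). Of these 4, Il1b was lower and the others higher in Cre+. The median log2 fold change of the 7 genes was 0.13, against 0.00 over all tested genes.

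**Figure D3:**
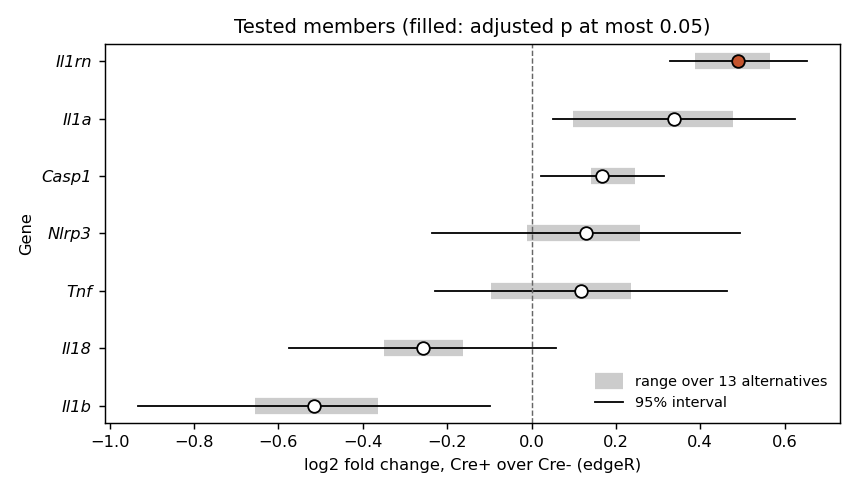
Log2 fold change of Cre+ over Cre- from edgeR for the 7 tested genes, with the 95% interval as a line, the range over 13 other settings or subsets of libraries as a grey bar, and a filled point where the adjusted p was at most 0.05. Il1rn at 0.49 is the single filled point, and the grey bars of Tnf and Nlrp3 cross 0.

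The remaining 3 genes are inducible transcripts that were near the limit of detection in these cultures. Il6 (ENSMUSG00000025746, chr5:30013114-30019981, plus strand) had 22, 17 and 25 counts in Cre- and 15, 8 and 7 counts in Cre+ libraries, which is 0.253, 0.184 and 0.279 against 0.137, 0.0859 and 0.0694 CPM. Each Cre+ library lay below each Cre- library, with a two-sided exact permutation p of 0.1, the smallest possible. Summed over libraries and scaled for depth, Cre+ had 0.415 times the Cre- level (95% exact interval 0.260 to 0.650, counting error only). Fitted without a filter, the log2 fold change of Il6 was -1.20 with an adjusted p of 0.43 in edgeR.

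Nos2 (ENSMUSG00000020826, chr11:78920787-78960254, plus strand) had 8, 4 and 12 counts in Cre- and 1, 2 and 1 counts in Cre+ libraries. Each Cre+ library was below each Cre- library and below 3 counts, which correspond to 0.0274 to 0.0345 CPM depending on the library. The summed level in Cre+ was 0.148 times that in Cre- (95% exact interval 0.0372 to 0.430, counting error only), and without a filter the adjusted p was 0.34 in edgeR. Il10 (ENSMUSG00000016529, chr1:131019845-131024974, plus strand), the anti-inflammatory cytokine of the group, had 6, 0 and 1 counts in Cre- and 0, 1 and 0 counts in Cre+ libraries. The groups overlapped and a ratio of 0.127 had an interval from 0.0028 to 0.985, so no more can be said of Il10 than that it was barely detected in either genotype.

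Lower values in Cre+ were common among genes with as few counts as Il6 and Nos2. Of 14719 genes below the filter with at least 20 counts in all, 23.3% lay lower in Cre+ without overlap and 2.24% lay higher, against 11.7% and 12.3% among the tested genes. Among 3980 genes with summed counts within 1.5-fold of those of Il6, the median ratio of Cre+ over Cre- was 0.567, against 0.408 for the means of Il6. Among 5031 genes within 1.5-fold of Nos2 the median was 0.510, against 0.150 for Nos2. Cre- libraries had counts on 32587 to 35166 genes and Cre+ libraries on 29941 to 30677, although the Cre+ libraries were on the whole deeper. Summed neuronal markers also lay lower in Cre+ (1.93 to 2.06 CPM) than in Cre- libraries (2.40 to 3.19 CPM), as did fibroblast or mural markers (0.392 to 0.559 against 0.872 to 1.64 CPM), endothelial markers (0.236 to 0.456 against 0.541 to 0.747 CPM) and neutrophil markers (7.08 to 7.93 against 9.14 to 11.1 CPM), the last through S100a8, with S100a9 at 0 to 0.00992 CPM. Within these sums, Rbfox3, Snap25, Tubb3, Pdgfrb, Cldn5 and Cdh5 overlapped between the groups, as did the neutrophil markers other than S100a8. Pdgfrb was highest in Cre+ replicate 2 (0.236 CPM). Pecam1 was thus the single endothelial marker that lay lower in Cre+ without overlap (0.226 to 0.328 against 0.357 to 0.626 CPM). Summed astrocyte markers overlapped (11.3 to 15.0 CPM in Cre+, 12.9 to 14.1 CPM in Cre-). This sum was mostly Aldh1l1 (9.92 to 13.7 CPM). Slc1a2 (0.208 to 0.319 against 0.476 to 0.563 CPM), Gja1 (0.258 to 0.312 against 0.498 to 0.908 CPM) and Aqp4 lay lower in Cre+ without overlap. The other astrocyte markers overlapped. Sums of the oligodendrocyte lineage, of monocytes or dendritic cells, and of T, B or NK cells overlapped too. Within them Cspg4 (41.1 to 45.9 against 46.5 to 50.6 CPM), Olig1, Mog, Flt3 and Ncr1 lay lower in Cre+ without overlap, and the rest overlapped. The part of any of these differences in the Il6 and Nos2 values was not tested.

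**Figure D4:**
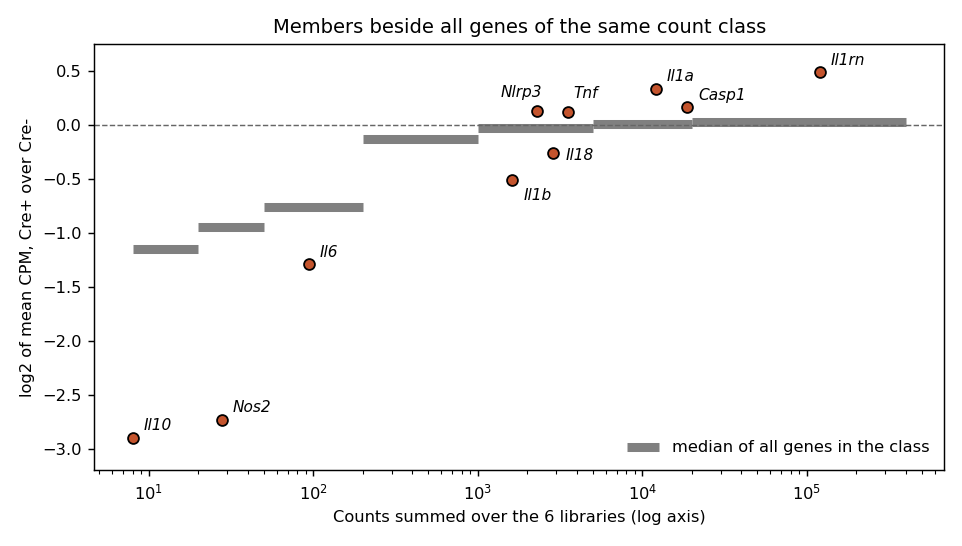
Log2 ratio of mean CPM in Cre+ over Cre- for the 10 genes (points) against the counts summed over 6 libraries on a log axis, with the median of all genes in each count class as a grey bar (the highest class has no upper bound). Class medians run from -1.15 for 8 to 20 counts to 0.03 for 20000 counts and more, and Il6, Nos2 and Il10 lie below the median of their class.

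The next comparison placed the group within its pathways, with 6 lists that held 137 genes, of which 136 were found in the files and 93 were tested. Of these 93, 1 was called higher and 5 were called lower in Cre+ (6.45%, against 5.07% of all tested genes). This split depended on the scaling. With factors over all genes with a count, and likewise without a filter, 7 were called higher and 2 lower, and 3 of the 6 original calls remained in each. The genes called lower were Tnfrsf1b, Nfkbia, Zfp36l2, Osm and Arg2, and of these Osm and Arg2 were called under all 13 other settings and under the factors over all genes.

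Among other inflammasome sensors, adaptors and effectors, 1 of 18 tested genes was called. Aim2, a sensor of cytosolic DNA that also recruits caspase-1, measured 20.3, 21.4 and 20.1 CPM in Cre- and 26.6, 26.5 and 23.6 CPM in Cre+ libraries. The groups did not overlap, and Aim2 rose with a log2 fold change of 0.31 (SE 0.08, adjusted p = 0.030). The call was lost in 4 of the 6 fits that left out a library and in edgeR with a replicate block (adjusted p = 0.051). The list's median was 0.03. Its most abundant gene per kb, Ninj1, whose product ruptures the plasma membrane in lytic cell death, measured 76.3 ± 2.61 CPM in Cre- and 66.0 ± 4.03 CPM in Cre+ (SD, n = 3 each), with a log2 fold change of -0.21 and an adjusted p of 0.051. Ninj1 was called lower with DESeq2 (adjusted p = 0.013), with DESeq2 size factors and without Cre+ replicate 1, whereas without a filter, or with factors over all genes, it was at -0.13 and 3 genes of the list were called higher.

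The IL-1 family list holds the receptors, decoys, other ligands and the MyD88 and IRAK relay. Of its 21 genes in the files, 10 were tested, and 0 of these passed in edgeR, DESeq2 or limma. Likewise 0 had an unadjusted p under 0.05 in edgeR. The other ligands, Il1r2, Il18bp, Sigirr, Il1rl1, Il18r1 and Il18rap were below the filter, so the tests do not cover them. Of these, Il18r1 (mean 0.189 CPM in Cre-, 0.0249 CPM in Cre+) and Il36b lay lower in Cre+ without overlap, and the rest overlapped. Among genes below the filter with at least 20 counts, 23.3% lay lower in this way. The log2 fold changes of the 10 genes ran from -0.19 to 0.16, around a median of 0.01. The most abundant per kb, Irak2, a kinase of the IL-1 receptor complex, measured 97.4 ± 0.407 CPM in Cre- and 97.9 ± 5.77 CPM in Cre+ (SD, n = 3 each). Its log2 fold change was 0.01 (95% interval -0.11 to 0.12, adjusted p = 0.97). The rise of Il1rn was thus not accompanied by a called change in any tested receptor or relay gene of this list.

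Of 19 tested genes of TNF, IL-6 and IL-10 signalling, 1 was called. Tnfrsf1b, a receptor for TNF, measured 408, 412 and 392 CPM in Cre- and 318, 348 and 363 CPM in Cre+ libraries. The groups did not overlap, and Tnfrsf1b fell by 0.24 on the log2 scale (SE 0.05, adjusted p = 0.012). The call was lost without a filter, with the filterByExpr filter, without Cre- replicate 2, without Cre+ replicate 1 and with factors over all genes. Under those factors, and without a filter, another gene of the list was called higher and none lower. The list's median was 0.01.

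Of 24 tested NF-κB subunits, feedback inhibitors and mRNA decay factors, 2 were called lower, but with factors over all genes, and likewise without a filter, 2 were called higher and none lower. Nfkbia, the inhibitor that NF-κB itself induces, measured 123, 130 and 127 CPM in Cre- and 114, 109 and 108 CPM in Cre+ libraries, a log2 fold change of -0.20 (SE 0.05, adjusted p = 0.030). Zfp36l2, an RNA-binding protein that destabilises AU-rich transcripts, measured 20.9, 20.9 and 21.6 CPM in Cre- and 15.9, 18.0 and 17.7 CPM in Cre+ libraries, a log2 fold change of -0.30 (SE 0.08, adjusted p = 0.048). Neither gene overlapped between groups, but the call of Nfkbia was lost in 4 of the 6 fits that left out a library, and that of Zfp36l2 in all 6. Both calls were also lost with a replicate block and with filterByExpr, and that of Zfp36l2 with library totals. The most abundant gene per kb, Atf3, a stress-induced repressor, measured 625 ± 6.47 CPM in Cre- and 608 ± 16.4 CPM in Cre+ (SD, n = 3 each), with an adjusted p of 0.66. The list's median was -0.09, against 0.00 over all tested genes, and 16 of the 24 estimates were negative. The median over all tested genes was 0.08 with factors over all genes with a count, so such signs depend on the scaling.

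Of 10 tested genes among 31 other cytokines, 1 was called. Osm, which encodes oncostatin M, an IL-6 family cytokine of myeloid cells, measured 5.58, 5.75 and 5.08 CPM in Cre- and 3.09, 2.50 and 3.05 CPM in Cre+ libraries. The groups were well apart. Osm fell by 0.92 on the log2 scale (SE 0.15, adjusted p = 0.0021), to 0.527 of its Cre- level, a larger change than that of Il1rn and in the other direction. The most abundant cytokine of this list per kb, Tnfsf12, measured 25.5 ± 0.701 and 25.9 ± 0.915 CPM (SD, n = 3 each), with an adjusted p of 0.91, and 731 of its exon bases are shared with the Tnfsfm13 annotation.

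Of 12 tested genes of arginine and nitric oxide metabolism, 1 was called. Arg2, a mitochondrial arginase, measured 15.3, 13.8 and 14.6 CPM in Cre- and 9.55, 8.42 and 10.4 CPM in Cre+ libraries. It fell by 0.63 on the log2 scale (SE 0.11, adjusted p = 0.0024) with no overlap between the groups. Of its 1428 exon bases, 285 are shared with Vti1b on the opposite strand, a gene with 68818 counts, and whether the counting used strand is not given in the sources used here. Ass1, the most abundant gene of the list per kb and an enzyme that regenerates arginine from citrulline, measured 211 ± 9.12 CPM in Cre- and 190 ± 9.83 CPM in Cre+ (SD, n = 3 each), with a log2 fold change of -0.15 and an adjusted p of 0.10.

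**Figure D5:**
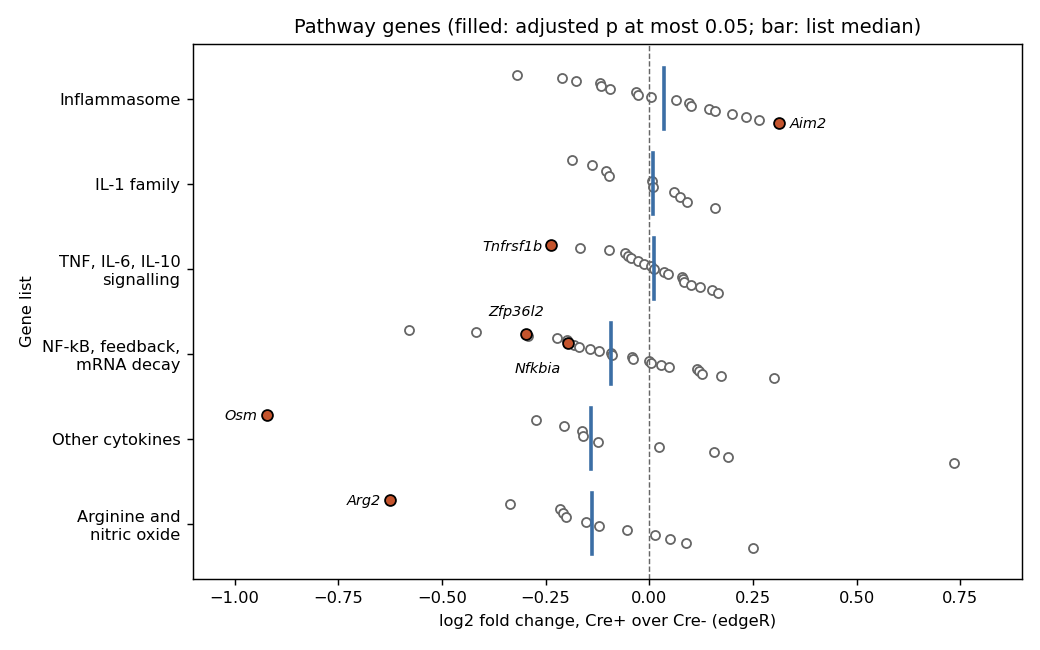
Log2 fold change of Cre+ over Cre- from edgeR for the 93 tested pathway genes, 1 point per gene and 1 row per list, with filled, named points for an adjusted p of at most 0.05 and a blue bar at each list's median. Aim2 lies to the right of 0 and Tnfrsf1b, Zfp36l2, Nfkbia, Osm and Arg2 to the left, while list medians run from -0.14 to 0.03; with factors over all genes with a count the calls became 7 higher and 2 lower.

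Across the 6 libraries, the tested genes whose log2 CPM followed Il1b most closely were Smim19 (r = 0.990), Miga2 (r = 0.989) and Nrbp1 (r = 0.988). Smim19 measured 5.34, 5.94 and 4.92 CPM in Cre- and 4.25, 4.87 and 4.02 CPM in Cre+ libraries, the same order of libraries within each group as Il1b. An r of at least 0.9 was reached by 132 tested genes (1.16%), and all points share the libraries' depth and genotype, so these values are descriptions of likeness over 6 libraries. None of the 3 genes passed the test between the groups, with adjusted p values in edgeR of 0.27, 0.22 and 0.28.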

How the data were processed

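RNA from 6 cultures was made into cDNA with a SMARTer kit and sequenced. The counts deposited by the authors are whole reads per Ensembl gene. The submitters' processing notes name STAR 2.7.9a, featureCounts 2.0.3 and GRCm38, whereas the methods of the study name other versions. The deposited CPM are those counts divided by the library total and scaled to 1000000, and the deposited FPKM are that CPM divided by gene length; both were read only to check their unit. The labels state 2 days of 4-OHT, and the methods a shorter time.

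Genes of rRNA biotypes (356, GENCODE M21) were removed. The genes kept exceeded 1 CPM in 4 or more libraries, and the test was that of edgeR 4.0.16 (quasi-likelihood, TMM, no covariates, Benjamini-Hochberg over all genes tested, threshold 0.05) in R 4.3.3. CPM printed here use TMM-scaled sums over the tested genes. Intervals of summed counts are exact binomial. The procedure was run on simulated counts with planted changes balanced between the directions. Those counts lack the lower values of low-count genes seen in Cre+, so that run does not address the dependence on scaling. The common dispersion gave a coefficient of variation of 10.0%. No 2 libraries were duplicates, with a chi-square per degree of freedom of at least 18.8. The labels do not say whether replicates were separate animals, so p-values measure the spread between these samples.

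Named genes were the members, Nr1d1, the most abundant and the called genes of each pathway list, and the 3 genes closest to Il1b. Members, lists and tests were chosen with earlier results of these data known. Alternatives were DESeq2 1.42.0 and its size factors, library totals, no filter, filterByExpr, limma 3.58.1 with voom quality weights, a replicate block, leaving out each library, and, added after seeing the data, TMM factors over all genes with a count.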

Additional observations from a re-analysis of the deposited data

How the results depend on the processing

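Il1rn kept its direction and its call under every alternative run. The number of the 10 genes called was 1, except for 2 without a filter (with Il1a) and 2 with factors over all genes with a count (with Casp1). Calls over all genes were 579 in the main analysis, 1528 without a filter, 890 with DESeq2, 1012 with factors over all genes (829 higher, 81.9%, against 49.4%), and 317 to 448 when 1 library was left out, fewest without Cre+ replicate 3. The median log2 fold change of all genes was -0.20 without a filter and 0.08 with factors over all genes. Of the pathway genes, 6 were called in the main analysis, 3 with filterByExpr, and 3 to 5 when 1 library was left out, with 3 without Cre- replicate 3 and without Cre+ replicate 2. Estimates near 0 changed sign, with ranges when 1 library was left out of -0.10 to 0.23 for Tnf, -0.011 to 0.26 for Nlrp3, -0.019 to 0.055 for Irak2 and -0.0068 to 0.045 for Tnfsf12. Atf3 was at 0.040 without a filter, 0.0046 with filterByExpr and 0.040 with factors over all genes. The cause of these shifts was not tested. Same-numbered Cre- and Cre+ libraries did not deviate together (r = 0.01, -0.02 and -0.04). The labels do not say whether the numbers pair the samples, and these values cannot settle it. A replicate block gave 430 calls over all genes, 3 among the pathway genes and 1 among the 10 genes. Depth limits what can be said of Il6, Nos2 and Il10, which had 94, 28 and 8 counts over 6 libraries.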
